A study of Homo sapiens with 15 samples.

Results

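The vacuolar-type H+-ATPase (V-ATPase) is a proton pump of endosomes, lysosomes, the Golgi and secretory vesicles. Its peripheral V1 sector hydrolyses ATP, and its membrane-embedded V0 sector carries protons into the compartment. The a subunit of V0 forms the proton half-channels and comes in several isoforms that are known to differ in the membrane they occupy, whereas the proteolipid ring, the d and e subunits and the accessory proteins are largely shared between pumps. The set comprised 9 genes, found by symbol among 59608 genes of the table: the a-subunit genes ATP6V0A1, ATP6V0A2 and TCIRG1, the proteolipid genes ATP6V0B and ATP6V0C, the d-subunit gene ATP6V0D1, the e-subunit gene ATP6V0E1, and the accessory genes ATP6AP1 and ATP6AP2. A mean normalized count of at least 10 over all libraries was reached by 8 of the 9 members and by 13561 genes in all, and only those were tested.

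RNA came from MDA-MB-231, a triple-negative breast cancer cell line, grown in 2D on dishes and treated for 6 h. The 5 groups were the vehicle, DMSO at 0.1%, and ZJ-101, a simplified analog of the marine macrolide superstolide A, at 0.5, 5, 50 and 500 nM, with 3 libraries each. One established line was used throughout, with no genetic change named for any group. The study describes the 3 libraries of a group as biological replicates, and no source used here gives the days or passages they came from.

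The 15 libraries held between 12415519 and 15284762 reads on genes. The mesenchymal markers of the line were all high, with VIM, CD44, CAV1, AXL and MSN between 7328 and 18413 normalized counts in every library. ESR1 reached at most 4.30, PGR at most 17.3 and the leukocyte gene PTPRC at most 3.53. ERBB2 was present at 1136 to 1328 normalized counts, CDH1 at 107 to 206, GATA3 at 122 to 168 and the endothelial gene PECAM1 at 201 to 321. The share of reads on mitochondrial genes ranged from 0.889% to 2.06% and differed between libraries of the same group.

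The promoters of the a-subunit genes and of 2 genes of the shared V0 subunits are shown first. ATP6V0E1 had no promoter entry and was not searched. Of the 8 members with an entry, only these 2 shared genes, ATP6V0B and ATP6V0D1, held the element CACGTG described below. They do not stand for the shared subunits as a group. Each line gives the 150 bases directly before the start of the RefSeq gene (GRCh38.p14), 5′ to 3′ on the strand of the gene. Capitals mark CACGTG, the core of the E-box elements read by basic helix-loop-helix factors including the lysosomal TFE family, and CCAAT, the box bound by NF-Y, or its reverse complement ATTGG. The windows are chr17:42458728-42458877 (plus strand) for ATP6V0A1, chr12:123712203-123712352 (plus) for ATP6V0A2, chr11:68038875-68039024 (plus) for the upstream start of TCIRG1, chr1:43974810-43974959 (plus) for ATP6V0B and chr16:67481158-67481307 (minus) for ATP6V0D1.
ATP6V0A1: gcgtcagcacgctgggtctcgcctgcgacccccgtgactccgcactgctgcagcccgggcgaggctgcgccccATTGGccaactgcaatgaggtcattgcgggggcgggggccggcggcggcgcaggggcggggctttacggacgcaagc
ATP6V0A2: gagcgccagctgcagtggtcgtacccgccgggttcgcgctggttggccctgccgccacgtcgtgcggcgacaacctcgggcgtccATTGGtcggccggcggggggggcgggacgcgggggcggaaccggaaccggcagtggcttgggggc
TCIRG1: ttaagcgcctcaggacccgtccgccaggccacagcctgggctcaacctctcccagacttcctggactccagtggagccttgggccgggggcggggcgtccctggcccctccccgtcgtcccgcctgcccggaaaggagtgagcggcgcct
ATP6V0B: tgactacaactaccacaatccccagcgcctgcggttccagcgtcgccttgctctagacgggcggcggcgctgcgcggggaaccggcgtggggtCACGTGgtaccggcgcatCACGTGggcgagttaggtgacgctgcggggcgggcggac
ATP6V0D1: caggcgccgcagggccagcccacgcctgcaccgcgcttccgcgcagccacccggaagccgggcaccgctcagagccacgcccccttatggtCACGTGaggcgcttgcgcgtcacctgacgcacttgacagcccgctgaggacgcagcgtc

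Over the whole annotated window, from 250 bases before to 50 bases after the start, CACGTG was found in 2 of the 8 members with an entry, against 7.26% of 35116 promoters and 12.4% of the tested genes with an entry. ATP6V0B held it at positions -57 and -39 relative to the start, and ATP6V0D1 held it within the longer palindrome TCACGTGA, which begins at -60 and occurs in 0.98% of promoters and 2.27% of tested genes. None of the a-subunit windows held CACGTG, and neither did those of ATP6V0C, ATP6AP1 and ATP6AP2, which are not printed here. The related letters ACGTGGC (overlapping CACGTG where a C precedes them) were found on the reverse strand of ATP6V0A2 at -97, and in 3.22% of promoters and 5.64% of tested genes. CCAAT, searched on both strands, was found in 5 of the 8 members, and in 34.6% of promoters and 43.4% of tested genes. The matches were in ATP6V0A1 at -77, ATP6V0A2 at -65, ATP6V0C at -233, ATP6AP1 at -113 and -74, and ATP6AP2 at -161 and -66. TCIRG1, ATP6V0B and ATP6V0D1 had none. TTCNNGAA, a heat-shock element core present in 7.74% of promoters and 8.33% of tested genes, and TGACGTGG, an unfolded-protein-response element present in 0.729% and 1.2%, had no match in any of the 8 members. Positions are relative to the RefSeq start, and the GENCODE v44 annotation differs for some of the printed genes. There ATP6V0B begins at 43974487, before its window, and ATP6V0A1 (42458844) and ATP6V0D1 (67481181) begin inside theirs. These are matches of letters in 1 window per start and say nothing of binding.

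Against DMSO, none of the 8 tested members passed the test at 0.5 or 5 nM (limma on log2(normalized count + 1), Benjamini-Hochberg adjusted p under 0.05 over 13561 genes), where 1.17% and 2.18% of all tested genes did. At 50 nM, 2 members were higher and 0 lower, beside 2.29% of tested genes called higher and 3.71% called lower. At 500 nM, 3 members were higher and 2 lower, beside 7.69% and 10.1%. The 3 members that rose were the 3 a-subunit genes, and the 2 that fell were the 2 accessory genes. Counted without a test, all 3 libraries lay above DMSO for 3 members at 50 nM and 4 at 500 nM (11.6% and 18.9% of tested genes), and all lay below it for 1 and 2 members (13.2% and 19.6%). The median change over the 8 tested members at 500 nM was 0.055 on the log2 scale, and over all tested genes it was 0.003. All fold changes below are on the log2(normalized count + 1) scale, and every dose was compared with the same 3 DMSO libraries.

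**Figure D1:**
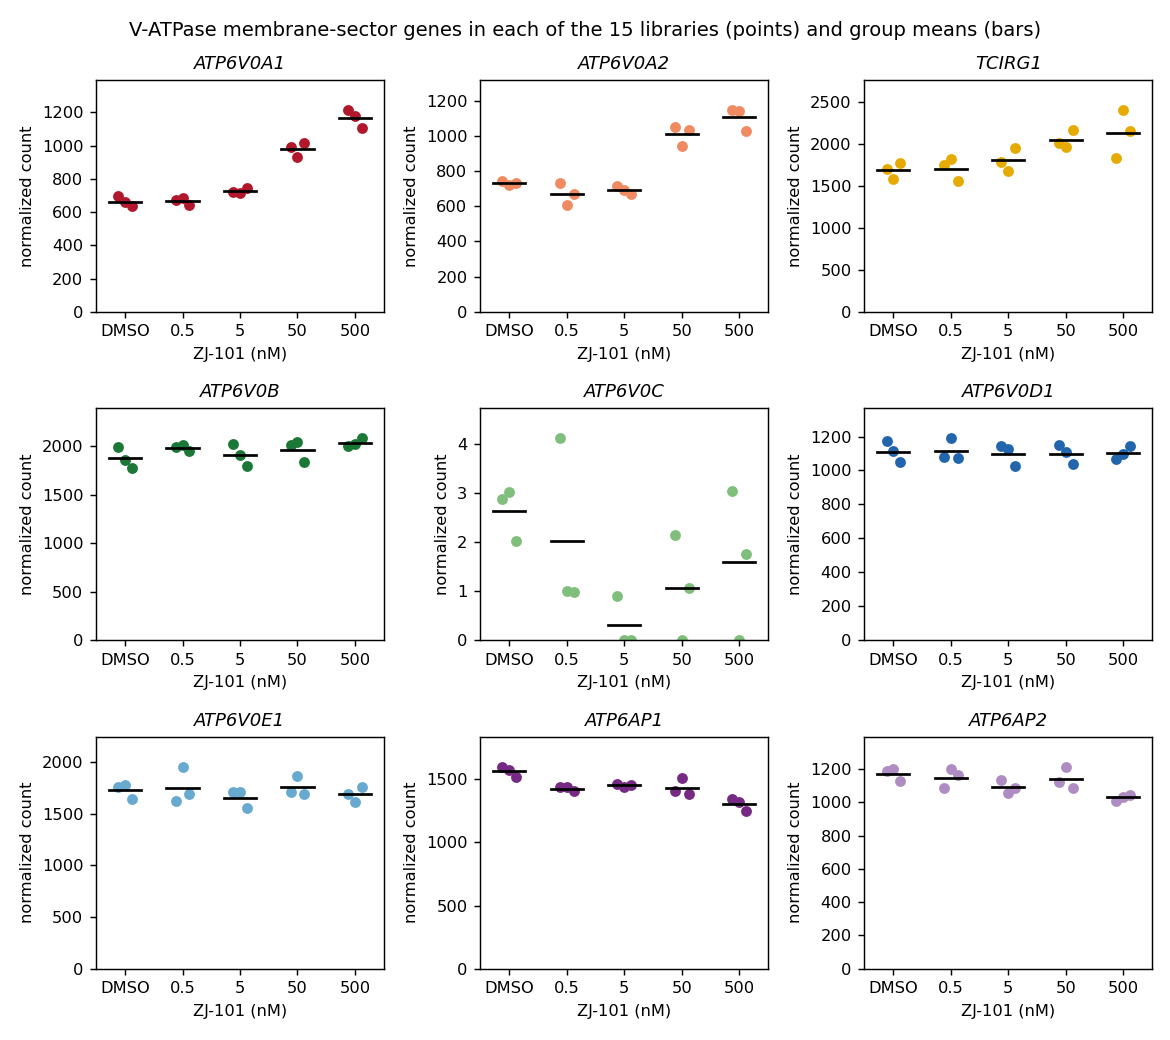
Normalized counts (y axis, from 0, a separate scale in each panel) of the 9 genes in each of the 15 libraries (points) by ZJ-101 dose in nM (x axis), with group means as bars. ATP6V0A1 was at 635 to 699 in DMSO and 1108 to 1215 at 500 nM, ATP6V0D1 stayed at 1027 to 1188 over all groups, and ATP6V0C was at 0 to 4.12.

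ATP6V0A1 (ENSG00000033627, chromosome 17, 42458844 to 42522582, plus strand, GENCODE v44 on hg38) encodes the a-subunit isoform best known from neuronal synaptic vesicles and endolysosomes, and it changed the most of the members. Its normalized counts were 699, 659 and 635 in the DMSO libraries. They were 673, 683 and 646 at 0.5 nM, and 721, 716 and 748 at 5 nM. The libraries at 0.5 nM overlapped those of DMSO, and the 3 at 5 nM all lay above DMSO, as they did for 10.5% of tested genes, by a change that did not pass the test (log2 fold change 0.13 ± 0.054 SE, limma adjusted p = 0.278). At 50 nM the counts were 993, 931 and 1019, and at 500 nM they were 1215, 1179 and 1108, so that the groups did not overlap with DMSO or with each other. The change against DMSO was 0.56 (95% confidence interval 0.45 to 0.68, limma adjusted p = 1.1e-06) at 50 nM and 0.81 (0.70 to 0.93, limma adjusted p = 2.9e-09) at 500 nM, which is 1.48-fold and 1.76-fold. By p-value, the gene ranked 65 and 67 among the 13561 tested genes at these doses.

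ATP6V0A2 (ENSG00000185344, chromosome 12, 123712353 to 123761755, plus strand), the isoform associated with the Golgi and early endosomes and mutated in a form of cutis laxa, rose at the same doses. In DMSO its normalized counts were 742, 721 and 729. At 0.5 nM they were 734, 605 and 671, and at 5 nM they were 717, 694 and 672. The 3 libraries at 5 nM were all below DMSO, as they were for 12.7% of tested genes. This difference was not called (-0.07, limma adjusted p = 0.716). At 50 nM the counts were 1049.8, 942 and 1034, and at 500 nM 1147, 1143 and 1024.5, with no overlap with DMSO at either dose but with overlap between the 2 doses. The changes against DMSO were 0.46 ± 0.067 (SE, limma adjusted p = 1.5e-04) and 0.59 ± 0.067 (limma adjusted p = 3.5e-06), or 1.38-fold and 1.51-fold.

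TCIRG1 (ENSG00000110719, chromosome 11, 68039025 to 68050895, plus strand), the isoform of lysosomes and of the ruffled border of osteoclasts, changed less and varied more between libraries. Its normalized counts in DMSO were 1711, 1581 and 1779.5. They were 1755, 1820.1 and 1559 at 0.5 nM, and 1794, 1685 and 1957 at 5 nM, both overlapping DMSO. At 50 nM they were 2017, 1964 and 2176, and at 500 nM 1837, 2410.1 and 2156. All 6 libraries at the higher doses lay above DMSO, the lowest of them by a narrow margin. The change was 0.28 (95% confidence interval 0.10 to 0.46, limma adjusted p = 0.0567) at 50 nM and 0.33 (0.15 to 0.50, limma adjusted p = 0.00941) at 500 nM. At 50 nM the change was called without 0.5 nM replicate 2, 0.5 nM replicate 3, 500 nM replicate 1 or 500 nM replicate 2 (limma adjusted p = 0.0216 to 0.0368). The call at 500 nM was lost without DMSO replicate 2 (0.28, limma adjusted p = 0.0574) and without 500 nM replicate 2 (0.24, limma adjusted p = 0.0703).

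Within each of the 5 groups, the library with the highest share of mitochondrial reads was also the one with the highest TCIRG1. At 50 nM this rests on a near tie. Replicates 3 and 2 had shares of 1.766% and 1.762%, and the highest and lowest TCIRG1 of the group (2176 and 1964 normalized counts). After the group means were removed, the correlation of TCIRG1 with that share over the 15 libraries was 0.70, and 1.96% of the tested genes had a larger one. For the other 7 tested members it lay between -0.43 and 0.11. With the share as a further term of the fit, chosen after this was seen, TCIRG1 was 0.30 higher at 500 nM (limma adjusted p = 0.00236) and 0.21 higher at 50 nM (limma adjusted p = 0.0862). The part of the mitochondrial share in the spread of TCIRG1 was not otherwise tested.

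The proteolipid gene ATP6V0B (ENSG00000117410, chromosome 1, 43974487 to 43978295, plus strand) encodes a member of the rotating ring that takes up protons. Its normalized counts were 1989, 1857 and 1781 in DMSO and 2005, 2025 and 2082 at 500 nM. The groups did not overlap at 500 nM, but the difference was small (0.12, 95% confidence interval 0.01 to 0.23, limma adjusted p = 0.137), and 18.9% of tested genes were also higher in all 3 libraries at this dose. Between the extremes of dose the counts ran from 1798 to 2047.

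ATP6V0C (ENSG00000185883, chromosome 16, 2513952 to 2520218, plus strand) encodes the main proteolipid of the same ring, a subunit that every pump needs. The table listed it with 3, 3 and 2 reads in the DMSO libraries, 4, 1 and 1 at 0.5 nM, 1, 0 and 0 at 5 nM, 2, 0 and 1 at 50 nM, and 3, 0 and 2 at 500 nM. The libraries at 0.5, 50 and 500 nM overlapped DMSO. All 3 at 5 nM lay below DMSO, as they did for 12.7% of tested genes. At so few reads no fold is given. In GENCODE v44, 76.3% of its exon bases are also exon bases of 2 read-through genes on the same strand. For the other 8 members at most 3.95% of exon bases were shared with other genes. No member had a copy elsewhere in hg38 of at least 95% identity over at least 50% of any of its protein-coding transcripts. RNASEK, another V0 gene that shares exon bases with other genes on its own strand (36.9%), was likewise listed low, at 4.46 to 17.0 normalized counts. How the counting treated reads that fall on 2 genes is not given in the sources used here, so the listed values of ATP6V0C say nothing of its expression.

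ATP6V0D1 (ENSG00000159720, chromosome 16, 67438014 to 67481181, minus strand) encodes the d subunit, which couples the central stalk to the ring. Its normalized counts were 1172, 1112 and 1049 in DMSO and 1066, 1097 and 1143 at 500 nM. All doses overlapped DMSO, and the interval of the change at 500 nM ran from -0.14 to 0.12. ATP6V0E1 (ENSG00000113732, chromosome 5, 172983771 to 173035445, plus strand), a small hydrophobic subunit, was at 1760.5, 1778 and 1644 in DMSO and at 1689, 1608 and 1759 at 500 nM. Its groups overlapped at every dose as well, and its interval at 500 nM was -0.17 to 0.10. A change of either gene of the size seen for ATP6V0A2 lay outside these intervals.

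ATP6AP1 (ENSG00000071553, chromosome X, 154428633 to 154436516, plus strand) encodes a glycoprotein of the lumenal face of V0 that takes part in its assembly in the endoplasmic reticulum. Its normalized counts were 1595, 1571 and 1518 in DMSO. They were 1434, 1436 and 1403 at 0.5 nM, 1459, 1435 and 1453.5 at 5 nM, and 1402, 1512 and 1378 at 50 nM. At all 3 of these doses every library was below every DMSO library, and at none did the change pass the test (-0.13, -0.11 and -0.13, limma adjusted p = 0.174, 0.312 and 0.124), though that at 50 nM did without 50 nM replicate 2 (-0.17, limma adjusted p = 0.0407). Of all tested genes, 10.7%, 12.7% and 13.2% were lower in all 3 libraries at the same doses. At 500 nM the counts were 1344, 1319.85 and 1248, a change of -0.26 (95% confidence interval -0.36 to -0.16, limma adjusted p = 4.5e-04), or 0.84-fold.

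ATP6AP2 (ENSG00000182220, chromosome X, 40579372 to 40606848, plus strand), the (pro)renin receptor, is a second V0-associated membrane protein. It was at 1189, 1203 and 1127 normalized counts in DMSO and at 1011, 1034 and 1045 at 500 nM, with no overlap. From 0.5 to 50 nM the counts ran from 1055 to 1213 and overlapped DMSO. The change at 500 nM was -0.19 (95% confidence interval -0.30 to -0.08, limma adjusted p = 0.0183), and the call was lost without DMSO replicate 1 (limma adjusted p = 0.0677), DMSO replicate 2 (0.0833) or 500 nM replicate 1 (0.0692). In these bulk samples, less RNA per cell cannot be told apart from fewer cells that carry it.

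**Figure D2:**
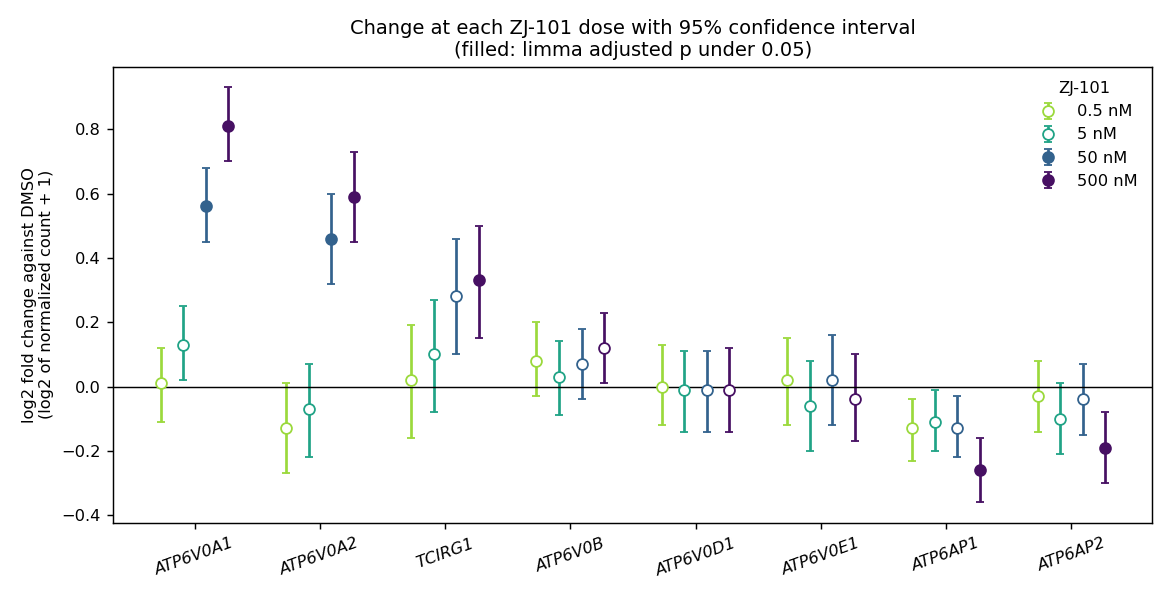
Log2 fold change against DMSO (y axis) of the 8 tested genes at each ZJ-101 dose (colours), from limma over 15 libraries, with 95% confidence intervals as bars and filled points for an adjusted p under 0.05. The filled points above 0 are ATP6V0A1 and ATP6V0A2 at 50 and 500 nM and TCIRG1 at 500 nM, and those below 0 are ATP6AP1 and ATP6AP2 at 500 nM.

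Between neighbouring doses, the step from 0.5 to 5 nM called none of the 8 members, nor more than 0.118% of all tested genes. From 5 to 50 nM, ATP6V0A2 rose by 0.54 (limma adjusted p = 5.8e-05) and ATP6V0A1 by 0.43 (limma adjusted p = 6.5e-05), where 2.62% of tested genes rose. TCIRG1 was 0.18 higher over this step, which was not called (limma adjusted p = 0.268) except with the mitochondrial share as a term (0.24, limma adjusted p = 0.0361). From 50 to 500 nM, 1 member passed the test, ATP6V0A1 with 0.25 (limma adjusted p = 0.0168), beside 0.479% of tested genes called higher. That call was lost without 50 nM replicate 2 (limma adjusted p = 0.109), 500 nM replicate 1 (0.0917) or 500 nM replicate 2 (0.0762). ATP6V0A2 differed by 0.13 over the same step (95% confidence interval -0.01 to 0.27).

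Over the whole series, log2 values rose with dose rank (DMSO lowest), and the slope was called, for ATP6V0A1 (0.22 per rank, limma adjusted p = 3.2e-07), ATP6V0A2 (0.18, limma adjusted p = 1.7e-04) and TCIRG1 (0.09, limma adjusted p = 0.00147), beside 8.23% of tested genes. A negative slope was called for ATP6AP1 (-0.05, limma adjusted p = 0.0036) and ATP6AP2 (-0.04, limma adjusted p = 0.0458), beside 9.33%. The slope of ATP6AP2 was not called with 10 of the 15 libraries left out in turn, all but DMSO replicate 3, 0.5 nM replicate 1, 5 nM replicate 2 and 50 nM replicates 1 and 2 (limma adjusted p = 0.0503 to 0.142). Neither accessory gene was called over the 12 treated libraries alone (limma adjusted p = 0.12 and 0.164), whereas the 3 a-subunit genes were.

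Whether the a-subunit genes changed differently from a subunit held by each V0 sector was tested by subtracting the log2 value of ATP6V0D1 in each library. At 500 nM, ATP6V0A1 was 0.82 above ATP6V0D1 (95% confidence interval 0.65 to 1.00, limma adjusted p = 1.2e-06), ATP6V0A2 0.60 (0.40 to 0.81, limma adjusted p = 3.6e-04) and TCIRG1 0.34 (0.12 to 0.56, limma adjusted p = 0.0466). Of all tested genes, 3.96% were called above ATP6V0D1 and 5.42% below it. ATP6AP1 was below it by a difference of -0.25 (limma adjusted p = 0.0361). Both of the last calls were close to the threshold. That of TCIRG1 was lost with 8 of the 15 libraries left out in turn, namely DMSO replicates 1 and 2, 0.5 nM replicate 1, 5 nM replicate 1, 50 nM replicates 1 and 2, and 500 nM replicates 2 and 3 (limma adjusted p = 0.052 to 0.257). The call of TCIRG1 was also lost with no filter on low values (0.34, limma adjusted p = 0.0772). That of ATP6AP1 was lost without any of the 3 DMSO libraries or 500 nM replicates 2 or 3 (limma adjusted p = 0.0544 to 0.18). The differences of ATP6V0B (0.13, 95% confidence interval 0.01 to 0.25), ATP6V0E1 (-0.02, -0.16 to 0.11) and ATP6AP2 (-0.18, -0.32 to -0.03) were not called. At 50 nM, ATP6V0A1 (0.58, limma adjusted p = 2.1e-04) and ATP6V0A2 (0.48, limma adjusted p = 0.00766) were above ATP6V0D1, as were 1.02% of tested genes, and the call of ATP6V0A2 was lost without 50 nM replicate 3 (limma adjusted p = 0.055).

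**Figure D3:**
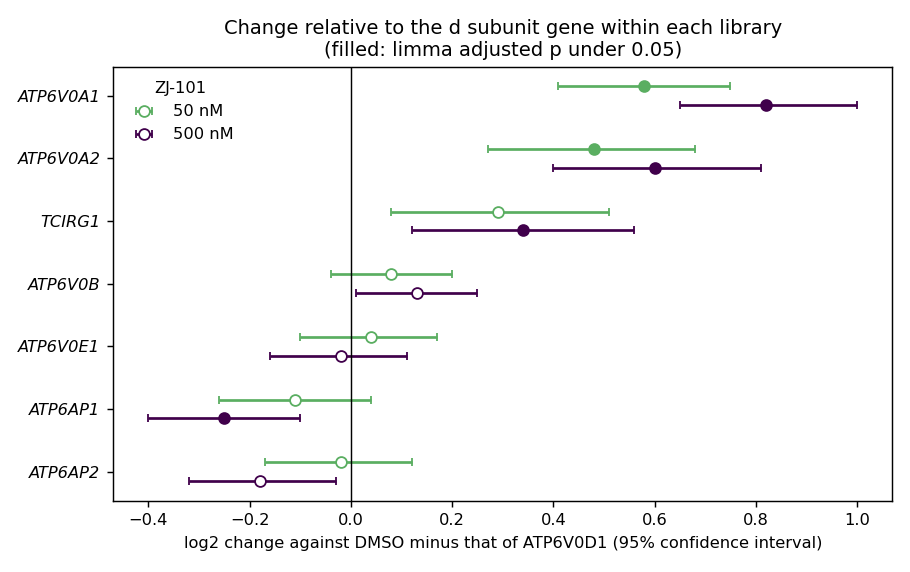
Change against DMSO of 7 genes after the value of ATP6V0D1 in the same library was subtracted (x axis, log2), at 50 and 500 nM, with 95% confidence intervals as bars and filled points for a limma adjusted p under 0.05. At 500 nM the 3 a-subunit genes lie at 0.34 to 0.82 and ATP6AP1 at -0.25.

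The a-subunit genes also differed among themselves. Relative to ATP6V0A1, the change at 500 nM was lower by 0.22 for ATP6V0A2 (95% confidence interval of the difference -0.38 to -0.06, limma adjusted p = 0.00931) and by 0.48 for TCIRG1 (-0.66 to -0.30, limma adjusted p = 1.3e-05). All 7 other tested members were called below ATP6V0A1, as were 93.3% of tested genes. At 50 nM, ATP6V0A2 was not called different from ATP6V0A1 (-0.10, 95% confidence interval -0.26 to 0.06), while TCIRG1 was below it (-0.28, limma adjusted p = 0.00447). In all, 6 members were below ATP6V0A1 at this dose, as were 87.0% of tested genes.

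Levels were compared between genes only as normalized count per kb of merged exon length. In DMSO the order was ATP6V0E1 at 1074 ± 45.5 (SD, n = 3), ATP6V0B at 579 ± 32.6, TCIRG1 at 368 ± 21.9, ATP6AP1 at 275 ± 6.97, ATP6V0D1 at 136 ± 7.56, ATP6AP2 at 123 ± 4.22, ATP6V0A1 at 51.3 ± 2.48 and ATP6V0A2 at 42.5 ± 0.602. ATP6V0C was left out of the order because of its shared exon bases. The ranges of neighbours in this order did not overlap, and the order was the same at 500 nM. It depended on the length used: by the longest transcript, ATP6AP1, ATP6V0D1 and ATP6AP2 overlapped and ATP6V0A2 lay above ATP6V0A1. By coding length TCIRG1 came after ATP6V0D1 and the ranges of ATP6AP2 and ATP6AP1 overlapped.

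On this scale TCIRG1 made up most of the a-subunit pool, taken as the sum of ATP6V0A1, ATP6V0A2, TCIRG1 and ATP6V0A4, the isoform of kidney intercalated cells. In DMSO it held 79.1% ± 1.06 (SD, n = 3), beside 11.1% ± 0.772 for ATP6V0A1, 9.15% ± 0.369 for ATP6V0A2 and 0.645% ± 0.175 for ATP6V0A4. By coding length TCIRG1 held 55.6% and ATP6V0A2 (23.3%) was above ATP6V0A1 (20.7%), so the shares themselves depend on the length chosen.

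The share of ATP6V0A1 was 11.5%, 11.6% and 10.2% in the DMSO libraries, 13.2%, 12.9% and 12.8% at 50 nM, and 16.6%, 13.3% and 13.8% at 500 nM. The 500 nM libraries all lay above DMSO, replicate 1 well above the others. In that library TCIRG1 was at 1837 normalized counts, against 2410 and 2156 in the other 500 nM libraries. ATP6V0A1 was at 1215 there, against 1179 and 1108. The mean difference between 500 nM and DMSO was 3.50 percentage points (two-sided exact permutation test, p = 0.1, the smallest that 3 libraries against 3 allow), and 2.46 without 500 nM replicate 1. TCIRG1 fell in share to 74.2% ± 2.97 (SD, n = 3) at 500 nM, also without overlap (exact permutation p = 0.1), although its own level did not fall. The sum of the 4 genes was 471, 440 and 482 normalized counts per kb in DMSO and 564, 687 and 621 at 500 nM, 1.34-fold more on average (exact permutation p = 0.1).

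**Figure D4:**
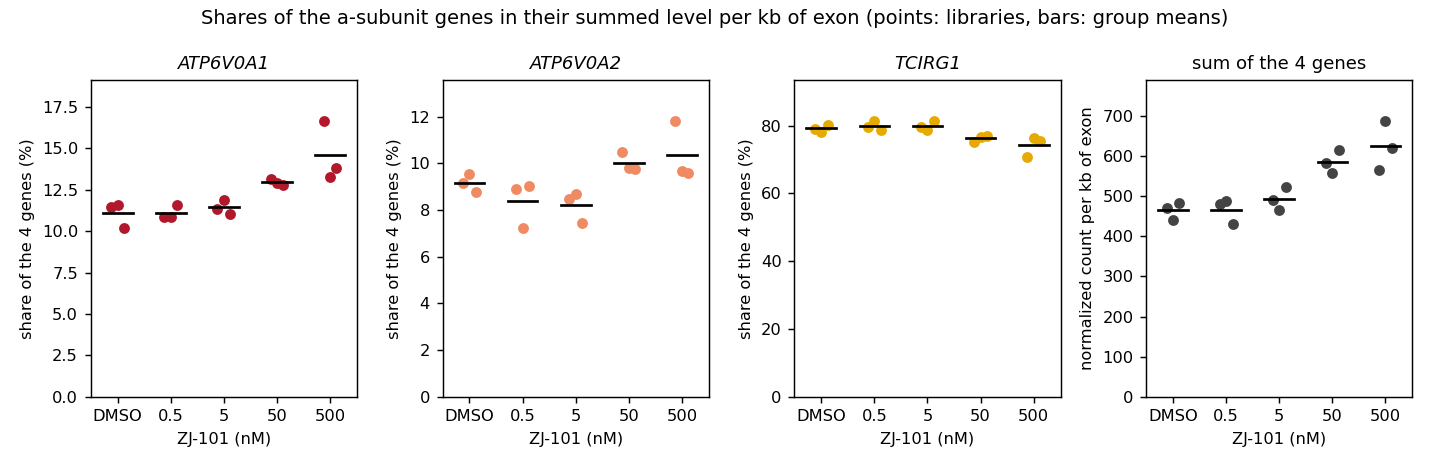
Share (y axis, %, from 0) of ATP6V0A1, ATP6V0A2 and TCIRG1 in the summed level per kb of exon of 4 a-subunit genes, and that sum in normalized counts per kb, in each library (points) by ZJ-101 dose in nM, with group means as bars. ATP6V0A1 holds 10.2% to 11.6% in DMSO and 13.3% to 16.6% at 500 nM.

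The other genes of the pump and of its surroundings were taken as a list of 47 genes, of which 40 were tested. At 500 nM, 4 of the 40 were higher and 2 lower, beside 7.69% and 10.1% of all tested genes, with a median change of -0.027 against 0.003 over all. None of the 9 tested genes of the V1 sector passed the test at any dose, and their changes at 500 nM ran from -0.05 to 0.17 with a median of -0.022. Among them ATP6V1A, the catalytic subunit, was at 0.08 (95% confidence interval -0.06 to 0.21). Of the 3 tested V0 genes outside the set, none was called. ATP6V0A4 was at 8.65 to 15.2 normalized counts in DMSO and 17.3 to 27.4 at 500 nM, a difference of 0.82 that was not called (95% confidence interval 0.06 to 1.57, limma adjusted p = 0.134).

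Of 11 tested assembly factors and regulators, 1 rose and 1 fell at 500 nM, which is near the 7.69% and 10.1% of all tested genes. MEAK7, a TLDc-domain protein linked to mTOR signalling, went from 627 ± 11.6 normalized counts in DMSO to 743 ± 24.5 (SD, n = 3; log2 fold change 0.24, limma adjusted p = 0.00515). NCOA7, a TLDc-domain protein that binds the V-ATPase, went from 979 ± 39.8 to 828 ± 33.3 (-0.24, limma adjusted p = 0.0105), a call lost without DMSO replicate 2 (limma adjusted p = 0.0629). VMA21, the chaperone of V0 assembly, was at 0.10 (95% confidence interval -0.06 to 0.26).

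Of 17 lysosomal nutrient-sensing and TFE-family genes, 3 rose and 1 fell at 500 nM, beside 7.69% and 10.1% of all tested genes, and the median change was -0.081 against 0.003 over all. SLC38A9, the lysosomal arginine sensor, rose from 319 ± 6.30 normalized counts to 402 ± 8.48 at 50 nM and 430.1 ± 1.80 at 500 nM (SD, n = 3; log2 fold changes 0.33 and 0.43, limma adjusted p = 0.00135 and 3.8e-05). It was the 1 gene of the 40 called at 50 nM, where 2.29% of tested genes were called higher, and its 50 and 500 nM libraries did not overlap DMSO. MCOLN1, a lysosomal cation channel, rose by 0.29 (limma adjusted p = 0.00585) and MITF, a transcription factor of the TFE family, by 0.24 (limma adjusted p = 0.00555). TFEB of the same family went from 57.0 ± 4.03 normalized counts in DMSO to 40.3 ± 6.67 at 500 nM (SD, n = 3). All 3 of its libraries at 500 nM lay below DMSO, as they did for 19.6% of tested genes. TFE3 went from 1946 ± 30.4 to 2008 ± 96.3, and neither TFEB nor TFE3 was called. RRAGA, a Rag GTPase, was 0.91-fold of DMSO (-0.14, limma adjusted p = 0.0471) and its call was lost with 10 of the 15 libraries left out in turn, all but the 3 at 0.5 nM, 50 nM replicate 2 and 500 nM replicate 3 (limma adjusted p = 0.0519 to 0.225). It was also lost with edgeR (adjusted p = 0.0508), DESeq2 (0.0661), no filter on low values (0.12) and the mitochondrial share as a term (0.0524).

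**Figure D5:**
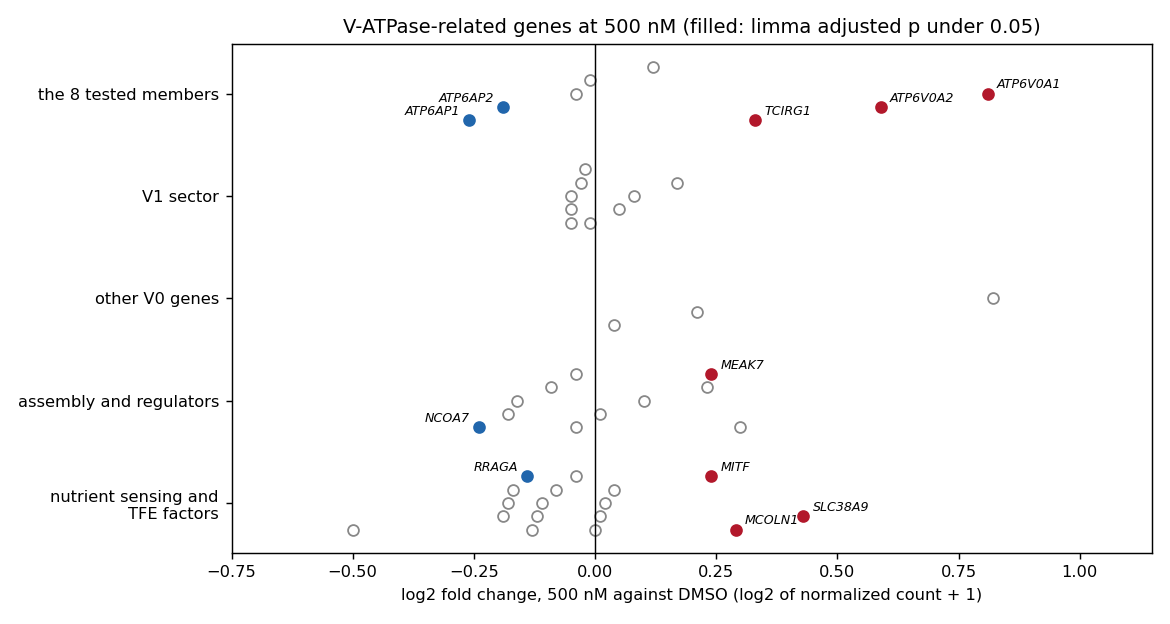
Log2 fold change at 500 nM against DMSO (x axis) of the 8 tested members and of 40 tested genes in 4 groups around the V-ATPase (rows; points are offset vertically for legibility), filled where the limma adjusted p is under 0.05. No gene of the V1 sector is filled, and the called genes of the list lie between -0.24 and 0.43.

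Over the log2 values of the 15 libraries, the genes most like ATP6V0A1 were PWWP3A (Pearson r = 0.994), a PWWP-domain protein, and the chaperone genes HSPA8 (0.987), HSPH1 (0.986), HSP90AB1 (0.986) and DNAJB1 (0.984). The most opposite were MMP14 (-0.984), a membrane-bound matrix metalloproteinase, CKAP4 (-0.982), PRSS23 (-0.982), ERO1A (-0.981) and TMEM263 (-0.981). Among the members the values were 0.947 for ATP6V0A2, 0.795 for TCIRG1, 0.427 for ATP6V0B, -0.072 for ATP6V0E1, -0.076 for ATP6V0D1, -0.601 for ATP6AP2 and -0.712 for ATP6AP1. These correlations describe 15 libraries in 5 dose groups, with the group means left in. A high value therefore includes any change with dose that both genes share, and likeness beyond that was not tested. The values are not independent, since the genes share libraries and their scaling.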

How the data were processed

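Poly-A libraries were sequenced with paired ends. According to the methods and labels, HISAT2 placed the reads on hg38, htseq-count gave the counts per gene, and DESeq2 scaled them. The deposited table holds the authors' normalized counts, a signal equal to reads divided by a size factor of 0.916 to 1.132. Dividing by the step of each column gave whole reads for 100.0% of values (within 0.001), and these were used for edgeR and DESeq2 as alternatives. 1 line without a gene was left out. Strand and the counting of overlapping genes are not given in the sources used here. Counting intervals would cover counting error only.

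Where the mean over all libraries reached 10 normalized counts, genes were tested with limma (version 3.58.1, R 4.3.3) with a mean-variance trend on log2(normalized count + 1), in 1 fit of all 15 libraries with group as the only term. P-values were Benjamini-Hochberg adjusted over all tested genes with a threshold of 0.05. A slope on dose rank and 2 fits after subtraction of ATP6V0A1 or ATP6V0D1 used the same model. The scripts were tested on simulated data. The study used DESeq2 on counts, here an alternative because the table is normalized. The members and gene lists were chosen with earlier results of these data known. The genes named are the members, the list genes called at 50 or 500 nM, with examples of the list for its groups, and the 5 genes with the highest and the 5 with the lowest correlation with ATP6V0A1. Gene positions and exon lengths came from GENCODE v44, copies from minimap2 (2.31-r1302) and promoters from RefSeq. Alternatives covered pseudocount, filter, scaling, test, replicate block, length and each library left out.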

Additional observations from a re-analysis of the deposited data

How the results depend on the processing

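No called change of a member reversed under any alternative run, and ATP6V0A1 and ATP6V0A2 passed the test at 50 and 500 nM under all of them. The counts of members called that moved by over 1.5 times were all counts of 2 or fewer. Members called lower at 500 nM ranged from 1 to 2 with each library left out, and those called lower at 50 nM from 0 to 1. Members called higher from 50 to 500 nM ranged from 0 to 1. Members with a falling slope numbered 2, but 1 with no filter on low values, 1 with the replicate block, 1 with the same total per library, 1 with the mitochondrial share as a term (added after seeing the data), 0 over the 12 treated libraries, and 1 to 2 with each library left out. Members above ATP6V0D1 at 50 nM ranged from 1 to 2 with each library left out. Those above it at 500 nM numbered 3, but 2 with no filter, and 2 to 3 with each library left out. The count below it at 500 nM was 1, but 0 with no filter, and 0 to 1 with each library left out. The cause of these moves was not tested. TCIRG1 passed the test at 50 nM with DESeq2 (adjusted p = 0.0177) and in a fit of the 6 libraries alone (limma adjusted p = 0.00245), a fit that called 467 of all tested genes higher at this dose where the fit of 15 libraries called 311. It also passed in the fit of all groups without 1 of 4 libraries outside that comparison, 0.5 nM replicates 2 and 3 and 500 nM replicates 1 and 2.

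The replicate numbers showed no clear pairing of the samples. Over 30 pairs of libraries of different groups with the same number, deviations from the group means correlated at -0.09 to 0.10 (median 0.01). Over 60 pairs with different numbers the range was -0.13 to 0.12 (median 0.00), and 7 of 15 libraries correlated best with their own number. A replicate block raised the calls over all tested genes at 50 nM from 311 higher and 503 lower to 343 and 524. At 500 nM it raised them from 1043 and 1366 to 1116 and 1390. With the replicate block, the members called at 500 nM were again 3 higher and 2 lower, the falling slopes fell from 2 to 1 as given above, and RRAGA lost its call at 500 nM (limma adjusted p = 0.0585). The difference in the share of ATP6V0A1 was 3.50 percentage points, 3.02 by the longest transcript and 4.88 by coding length, and 2.46 to 4.15 with each library left out. Other scalings moved the median change of all genes by less than 0.1 on the log2 scale. With 3 libraries per group, small changes of a member can go uncalled. ATP6V0C was listed below the filter on low values, and its listed values say nothing of its expression, as given above.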
